A study of Mus musculus with 11 samples.

Results

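STAT3 and STAT5 target genes were examined in the mutation-order RNA-seq experiment, and 6 of the 51912 genes in the count table were followed: Pim1, Pim2, Pim3, Osm, Bcl3 and Bcl6. They were taken by symbol from the class of genes that STAT3 or STAT5 regulates, with earlier results of these data known. RNA was sequenced from C57BL/6 mouse bone marrow in 11 samples. The 4 CSF3R-only samples carried a constitutively expressed, activated human CSF3R mutant. The 3 CSF3R-first samples expressed the same CSF3R mutant from the outset and a C-terminal CEBPA mutant second. In the 4 CEBPA-first samples the order was the other way round, with mutant CEBPA from the outset and mutant CSF3R second. The second gene sat behind a Cre-dependent switch in a retroviral vector, and CSF3R-only cells carried that vector without a gene in it. Mutant CSF3R was thus constitutive in CSF3R-only and CSF3R-first cells, but Cre-dependent and later in CEBPA-first cells. Comparisons with CEBPA-first therefore differ in mutant CEBPA and also in the timing and vector of mutant CSF3R. These cannot be told apart here. Donors were 6 to 12 weeks old and expressed a tamoxifen-activated Cre from the Rosa26 locus. All groups therefore shared the Cre allele, retroviral transduction in cytokine-supplemented medium, sorting of lineage-negative cells positive for both vector markers, and then 48 h of culture without added cytokines in 500 nM 4-hydroxytamoxifen. The retroviral promoter, not the native one, drove each mutant, and the cells had been grown outside the animal. Replicates are named by letters that are not said to mark separate animals. Each p-value sets a group difference against the spread between these samples, which may be partly technical. Whether the differences hold across animals was not tested.

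The receptor for granulocyte colony-stimulating factor, encoded by CSF3R, signals through JAK kinases that phosphorylate STAT3 and STAT5. The phosphorylated factors bind DNA at short palindromes and regulate genes that include the PIM kinases, oncostatin M, BCL3 and BCL6. BCL6 is known to be induced by STAT3 and repressed by STAT5. The PIM proteins are serine/threonine kinases that promote survival and protein synthesis, oncostatin M is a secreted cytokine of the interleukin 6 family, BCL3 is an atypical IkB protein that binds the p50 and p52 NF-kB subunits in the nucleus, and BCL6 is a zinc finger repressor best known from germinal center B cells and also present in myeloid cells.

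Total counts ran from 47905747 to 72268346 per sample, and 15703 genes passed the filter on low counts, all 6 STAT targets among them. Levels are given as CPM, the TMM-scaled count rate of a gene in its library, and at these depths 3 counts correspond to at most 0.0648 CPM. The cells were sorted as lineage-negative before culture. Markers of mature neutrophils fell in CEBPA-first cells against CSF3R-only cells for 12 of 12 genes, with summed levels of 26938 to 33154 CPM in CSF3R-only samples, 14616 to 25520 CPM in CSF3R-first samples and 6437 to 8570 CPM in CEBPA-first samples. The CEBPA-first sum came mainly from Mmp8, S100a9 and S100a8 (means 4824, 1154 and 1131 CPM), while Ly6g, Camp and Fpr1 were at 3.65, 0.562 and 6.29 CPM there. Monocyte and macrophage markers fell for 9 of 10 genes, and promyelocyte granule genes rose for 5 of 5, from 2860.0 to 3499 CPM in CSF3R-only to 6300 to 6757 CPM in CEBPA-first. Of all tested genes, 35.4% were called higher and 36.6% lower in CEBPA-first against CSF3R-only (edgeR, adjusted p under 0.05). In bulk RNA, fewer cells of a type and less RNA per cell cannot be told apart, and the part of cell makeup in the values below was not tested. For B cells, the source in which BCL6 is best known, Pax5, Ms4a1 and Ebf1 had at most 3 counts in every sample. The summed B cell markers, mainly Cd79b, ran from 3.71 to 4.57 CPM in CSF3R-only and from 6.24 to 7.53 CPM in CEBPA-first, and of 3 tested 2 rose and 1 fell. The T and NK cell markers Cd3e, Cd8a, Ncr1 and Trbc1 also had at most 3 counts in every sample, and that list summed to at most 0.883 CPM.

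The STAT targets did not move as one block. In CEBPA-first against CSF3R-only cells Pim1 and Pim3 rose while Pim2, Osm, Bcl3 and Bcl6 fell, and the largest change was the 5.40-fold fall of Bcl6. Between the 2 mutation orders Pim1 and Pim3 were higher in CEBPA-first than in CSF3R-first cells, Osm, Bcl3 and Bcl6 were lower, and Pim2 did not pass the test. CSF3R-first cells lay between the other groups in mean level for every one of these genes but Pim2.

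**Figure D1:**
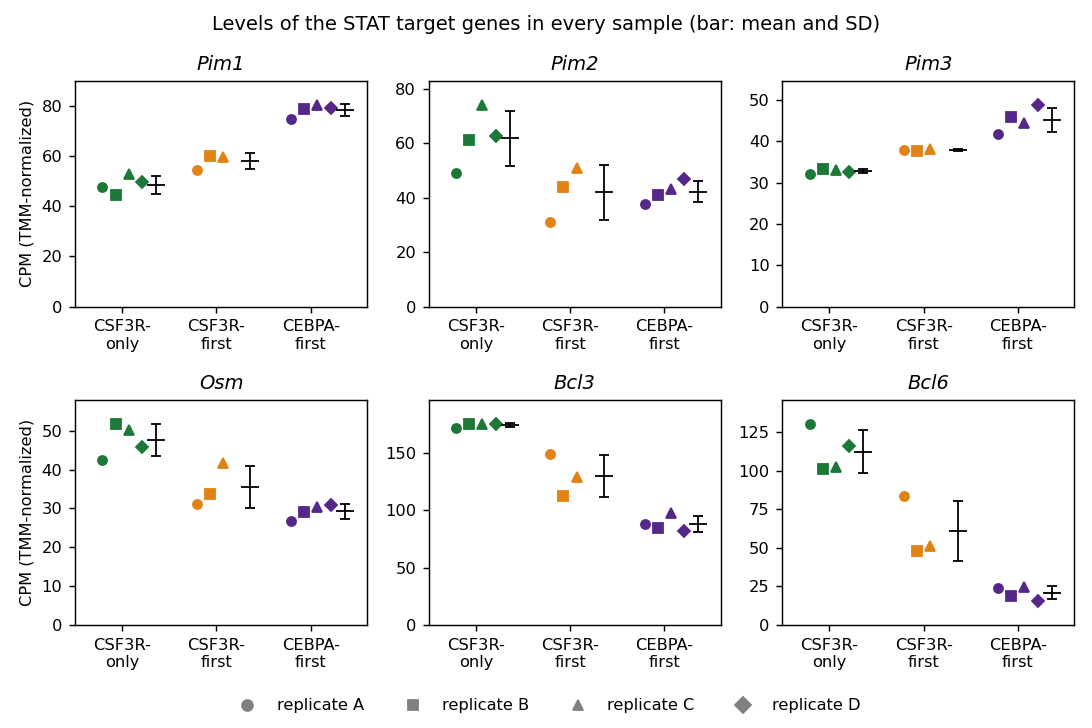
CPM of each gene in the 11 samples (one symbol per replicate letter), with the group mean and SD drawn beside the symbols; each vertical axis starts at 0. Pim1 and Pim3 step up from CSF3R-only to CEBPA-first, Osm, Bcl3 and Bcl6 step down, and Pim2 in CSF3R-first overlaps both other groups.

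Those counts have to be read against how widely expression differed here. With edgeR at an adjusted p under 0.05, 72.0% of tested genes were called in CEBPA-first versus CSF3R-only (35.4% higher and 36.6% lower), beside 2 of the 6 STAT targets higher and 4 lower. In CEBPA-first against CSF3R-first 48.3% were called (24.0% higher, 24.3% lower), beside 2 STAT targets higher and 3 lower. In CSF3R-first against CSF3R-only 42.7% were called (21.6% higher, 21.1% lower), beside 2 higher and 4 lower. The sample values of CEBPA-first and CSF3R-only did not overlap for 6 of 6 genes, as for 68.7% of all tested genes. The corresponding numbers were 5 of 6 against 52.2% for CEBPA-first and CSF3R-first, and 5 of 6 against 42.1% for CSF3R-first and CSF3R-only. The median log2 fold change over the 6 genes was -0.62, -0.14 and -0.42 in these 3 comparisons, beside 0.00, 0.00 and -0.02 over all tested genes. An absolute log2 fold change of at least 1 as well as the adjusted p was met by 27.0%, 12.8% and 6.65% of tested genes, and among the STAT targets by Bcl6 alone, in both comparisons of CEBPA-first.

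Pim1 (ENSMUSG00000024014, chr17:29490753-29496112, plus strand, GRCm38) was the PIM gene that rose most. Its level was 47.6, 44.5, 52.9 and 49.8 CPM in CSF3R-only replicates A to D, 54.5, 60.3 and 59.9 CPM in CSF3R-first A to C, and 74.9, 79.1, 80.5 and 79.2 CPM in CEBPA-first A to D. The 3 groups formed separate steps with no shared values, and the lowest CSF3R-first sample stood just above the highest CSF3R-only sample. Group means were 48.7 ± 3.51 (SD, n = 4), 58.2 ± 3.23 (n = 3) and 78.4 ± 2.46 CPM (n = 4). Pim1 was 1.61-fold higher in CEBPA-first cells than under CSF3R-only (a log2 change of 0.69, SE 0.06, edgeR adjusted p = 6.2e-07) and 1.35-fold higher than in CSF3R-first (0.43, SE 0.07, adjusted p = 0.00031). CSF3R-first cells had 1.20-fold more Pim1 than CSF3R-only cells (0.26, SE 0.07, adjusted p = 0.0082). The antisense gene Gm26885 covers 14.5% of the exon bases of Pim1 and had 0 to 4 counts in any sample.

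Pim3 (ENSMUSG00000035828, chr15:88862186-88865726, plus strand) encodes a close relative of PIM1 and followed the same steps on a smaller scale. It stood at 32.1, 33.3, 33.2 and 32.7 CPM in CSF3R-only, 37.9, 37.6 and 38.2 CPM in CSF3R-first, and 41.9, 46.0, 44.4 and 48.8 CPM in CEBPA-first. No group overlapped another, and the spread inside CSF3R-only (SD 0.528 CPM) and CSF3R-first (SD 0.306 CPM) was the smallest SD in CPM of the 6 genes in those groups. The rise was 1.38-fold in CEBPA-first versus CSF3R-only (log2 fold change 0.46, SE 0.06, edgeR adjusted p = 7.6e-06), 1.19-fold against CSF3R-first (0.26, SE 0.06, adjusted p = 0.0044), and 1.16-fold in CSF3R-first versus CSF3R-only (0.21, SE 0.06, adjusted p = 0.015).

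Pim2 (ENSMUSG00000031155, chrX:7878262-7883432, plus strand), which encodes the third PIM kinase, went the other way. Its values were 49.1, 61.2, 73.9 and 62.7 CPM in CSF3R-only, 31.1, 43.8 and 51.0 CPM in CSF3R-first, and 37.6, 40.9, 43.0 and 46.9 CPM in CEBPA-first. CSF3R-first replicate C exceeded CSF3R-only replicate A, and the CSF3R-first samples lay on both sides of the CEBPA-first range. Pim2 was 1.47-fold lower in CEBPA-first cells than under CSF3R-only (a log2 change of -0.55, SE 0.14, edgeR adjusted p = 0.0039) and 1.47-fold lower in CSF3R-first than in CSF3R-only (-0.56, SE 0.16, adjusted p = 0.013). Between the mutation orders the means were 42.1 ± 3.91 and 42.0 ± 10.1 CPM, the adjusted p was 0.98 in edgeR, and the 95% interval of the fold ran from 0.794 to 1.27.

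**Figure D2:**
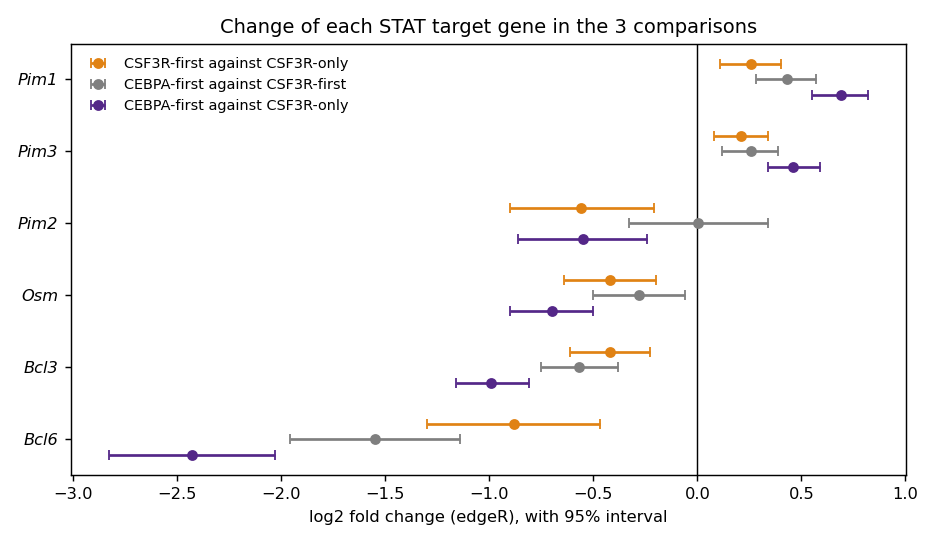
Log2 fold change (horizontal axis) of each gene in the 3 comparisons, from the edgeR fit, with 95% intervals as bars. The interval for Pim2 in CEBPA-first versus CSF3R-first spans 0, and all 3 intervals for Bcl6 lie below those for Pim1 and Pim3.

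The makeup of the PIM family differed between the groups. Per kilobase of exon, Pim2 was the most abundant PIM transcript in CSF3R-only cells at 22.1 ± 3.63 CPM per kb (n = 4), against 14.5 ± 1.04 for Pim1 and 13.5 ± 0.218 for Pim3. In CEBPA-first cells Pim1 was the most abundant at 23.3 ± 0.733 CPM per kb (n = 4), followed by Pim3 at 18.7 ± 1.20 and Pim2 at 15.1 ± 1.40. In CSF3R-first cells Pim1, Pim3 and Pim2 stood at 17.3 ± 0.960, 15.6 ± 0.126 and 15.0 ± 3.60 CPM per kb (n = 3). Pim1 was above Pim3 in each of these samples, while the rank of Pim2 varied (11.1, 15.7 and 18.2 CPM per kb in A to C). The summed PIM level was 50.1 ± 4.52 CPM per kb in CSF3R-only cells, 48.0 ± 4.54 in CSF3R-first cells and 57.0 ± 3.09 in CEBPA-first cells.

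Pim1 made up 29.0 ± 1.87% of the summed level in CSF3R-only cells, 36.2 ± 1.71% in CSF3R-first cells and 40.9 ± 1.36% in CEBPA-first. The share of Pim2 went from 43.9 ± 3.48% through 31.0 ± 4.72% to 26.4 ± 1.09%. The Pim1 share was higher by 11.95 percentage points in CEBPA-first than in CSF3R-only, by 4.71 points in CEBPA-first than in CSF3R-first, and by 7.24 points in CSF3R-first than in CSF3R-only. In a two-sided exact permutation test each difference had p = 0.0286, which is the smallest p that 70 relabelings (or 35 for the comparisons with CSF3R-first) allowed, and 0.0286 after Benjamini-Hochberg adjustment over these 3 tests. Measured as the log2 ratio of Pim1 to Pim2 counts instead, the difference between the mutation orders was 0.40 with an adjusted p of 0.0571 in the exact permutation test.

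**Figure D3:**
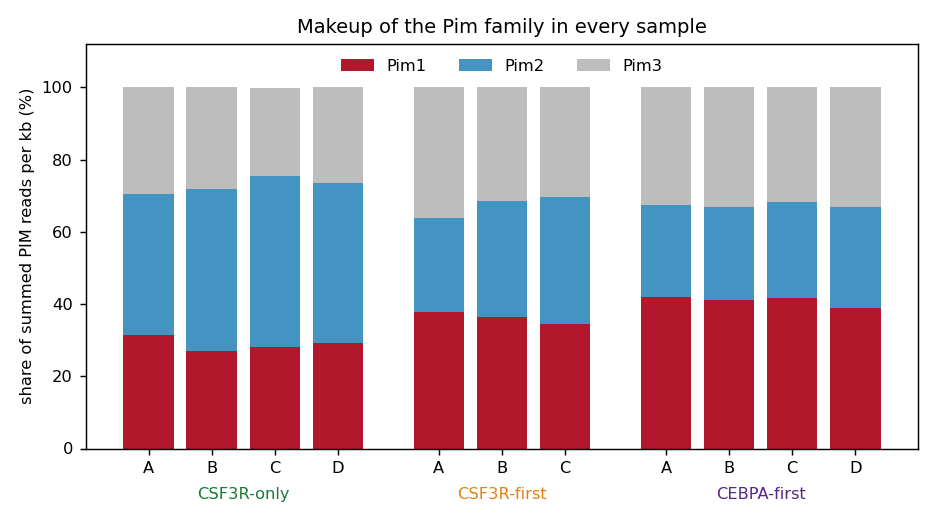
Stacked bars give the share (%) of Pim1, Pim2 and Pim3 in their summed reads per kilobase, one bar per sample, grouped by condition with replicate letters below. Pim2 is the largest segment in every CSF3R-only sample and Pim1 the largest in every CEBPA-first sample.

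The counts for the gene lists that follow stand beside the same shares of all tested genes as above. These were 35.4% higher and 36.6% lower in CEBPA-first versus CSF3R-only, and 24.0% higher and 24.3% lower in CEBPA-first versus CSF3R-first. Of 14 tested genes for PIM kinase substrates and translation targets, 7 rose and 5 fell in CEBPA-first versus CSF3R-only, with a median log2 fold change of 0.07. The largest rise was that of Myc, a transcription factor whose protein PIM kinases stabilize, from 157.7 ± 27.7 to 464.8 ± 16.3 CPM (log2 fold change 1.56, SE 0.13, edgeR adjusted p = 2.3e-07). The largest fall was that of Foxo1, a transcription factor of quiescence and stress genes, from 17.5 ± 0.910 to 7.80 ± 0.720 CPM (-1.17, SE 0.10, adjusted p = 5.7e-07 in edgeR). Between the mutation orders 4 of these genes stood higher in CEBPA-first and 3 lower.

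Osm (ENSMUSG00000058755, chr11:4236420-4241026, plus strand), the cytokine of the set, fell. It stood at 42.5, 51.8, 50.1 and 45.9 CPM in CSF3R-only, 31.2, 33.7 and 41.7 CPM in CSF3R-first, and 26.7, 29.1, 30.4 and 31.0 CPM in CEBPA-first. The groups did not overlap, but CSF3R-first replicate A stood only just above the highest CEBPA-first sample and CSF3R-first replicate C only just below the lowest CSF3R-only sample. Osm was 1.62-fold lower in CEBPA-first cells than under CSF3R-only (a log2 change of -0.70, SE 0.09, edgeR adjusted p = 1.9e-05) and 1.34-fold lower in CSF3R-first than in CSF3R-only (-0.42, SE 0.10, adjusted p = 0.0059). Between the mutation orders the difference was 1.21-fold (-0.28, SE 0.10, adjusted p = 0.037). That last call in edgeR was lost without CSF3R-first replicate C (-0.15, adjusted p = 0.20), without CEBPA-first replicate A (-0.24, adjusted p = 0.099) or B (-0.28, adjusted p = 0.074), and without the filter on low counts (-0.25, adjusted p = 0.065).

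The genes for receptor subunits of oncostatin M and related cytokines also differed between groups, in both directions. Osmr, which encodes the specific receptor chain of oncostatin M, was at 4.17, 3.14, 2.38 and 3.94 CPM in CSF3R-only, 2.56, 1.67 and 1.72 CPM in CSF3R-first, and 0.582, 0.273, 0.499 and 0.268 CPM in CEBPA-first. CEBPA-first lay below every other sample, while CSF3R-first replicate A exceeded CSF3R-only replicate C. Osmr fell by 3.09 on the log2 scale in CEBPA-first versus CSF3R-only (SE 0.28, edgeR adjusted p = 7.1e-07) and stood lower against CSF3R-first as well (-2.30, SE 0.30, adjusted p = 7.5e-05). Lifr, the receptor chain for leukemia inhibitory factor, had means of 28.0 ± 3.19, 10.6 ± 1.62 and 3.86 ± 0.471 CPM in the 3 groups, in the order CSF3R-only, then CSF3R-first, then CEBPA-first. Its log2 fold changes in CEBPA-first were -2.86 against CSF3R-only (SE 0.12, edgeR adjusted p = 1.4e-09) and -1.47 against CSF3R-first (SE 0.13, adjusted p = 3.4e-06).

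Il6st, the signal-transducing subunit that most of the cytokine family shares, moved in the opposite direction. Its means were 97.2 ± 6.01, 166.6 ± 7.63 and 278.9 ± 29.3 CPM in the 3 groups, in the order CSF3R-only, then CSF3R-first, then CEBPA-first, with no overlap between groups. Its log2 fold change was 1.52 for CEBPA-first versus CSF3R-only (SE 0.08, edgeR adjusted p = 6.1e-09). Of 7 tested receptors of the interleukin 6 family, 3 rose and 4 fell in that comparison, with a median log2 fold change of -0.46, and the largest rise was that of Il31ra, a receptor chain for interleukin 31, from 0.417 ± 0.467 to 8.20 ± 0.549 CPM (4.31, SE 0.46, adjusted p = 2.3e-06). Of 5 tested ligands other than Osm, 2 rose and 1 fell. Il6, which encodes interleukin 6, rose from 12.6 ± 3.81 to 30.8 ± 6.75 CPM (log2 fold change 1.29, SE 0.26, edgeR adjusted p = 0.00057). Clcf1, which encodes a cytokine acting through the ciliary neurotrophic factor receptor, fell from 1.89 ± 0.249 to 0.42 ± 0.10 CPM (-2.16, SE 0.27, adjusted p = 9.9e-06).

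**Figure D4:**
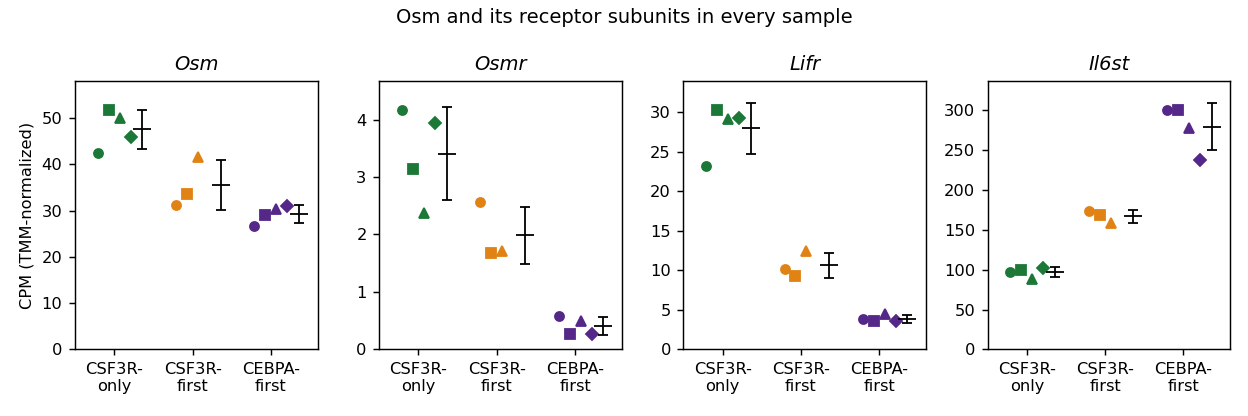
CPM of Osm and of 3 receptor subunit genes in each sample, with group mean and SD beside the symbols; circles, squares, triangles and diamonds are replicates A to D, and each vertical axis starts at 0 with its own scale. Osm, Osmr and Lifr step down towards CEBPA-first, and Il6st steps up.

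Bcl3 (ENSMUSG00000053175, chr7:19808462-19822770, minus strand) was the most abundant of the 6 genes per kilobase, at 70.5 ± 0.728 CPM per kb in CSF3R-only cells, 52.7 ± 7.40 in CSF3R-first cells and 35.6 ± 2.75 in CEBPA-first. By sample it stood at 171.9, 175.6, 175.1 and 175.6 CPM in CSF3R-only, 149.2, 112.7 and 129.2 CPM in CSF3R-first, and 88.3, 84.5, 97.4 and 81.8 CPM in CEBPA-first. The groups did not overlap, and the CSF3R-only samples lay close together (CV 1.03%, against 14.0% in CSF3R-first and 7.74% in CEBPA-first). Bcl3 was 1.98-fold lower in CEBPA-first cells than under CSF3R-only (a log2 change of -0.99, SE 0.08, edgeR adjusted p = 2.8e-07) and 1.48-fold lower than in CSF3R-first (-0.57, SE 0.09, adjusted p = 0.00026). CSF3R-first was 1.34-fold lower than CSF3R-only (-0.42, SE 0.09, adjusted p = 0.0025). The antisense gene Gm16175 overlaps 6.5% of the exon bases of Bcl3 and had 0 to 9 counts per sample.

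Genes of the NF-kB and IkB family, the partners and relatives of BCL3, mostly fell with it. Of 13 tested, 11 were lower and 1 higher in CEBPA-first versus CSF3R-only, with a median log2 fold change of -0.79, and 9 were lower and none higher in CEBPA-first versus CSF3R-first, with a median of -0.36. Nfkb2, the gene of the p52 subunit, went from 160.1 ± 16.8 CPM in CSF3R-only cells to 101.4 ± 15.3 in CSF3R-first cells and 45.5 ± 3.29 in CEBPA-first (log2 fold change -1.82 between the outer groups, SE 0.10, edgeR adjusted p = 9.2e-09). Relb, whose protein pairs with p52, fell most, from 69.0 ± 6.70 through 36.9 ± 7.97 to 8.57 ± 1.29 CPM (-3.01, SE 0.14, adjusted p = 2.3e-09). Nfkb1, the gene of the p50 subunit, was at 121.2 ± 9.65, 118.8 ± 9.20 and 129.5 ± 6.97 CPM and did not pass the test (0.10, SE 0.07, edgeR adjusted p = 0.24). The one gene of the family that rose was Chuk, which encodes an IkB kinase, from 101.0 ± 3.29 to 114.7 ± 6.57 CPM (0.18, SE 0.05, adjusted p = 0.0087 in edgeR).

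Bcl6 (ENSMUSG00000022508, chr16:23965052-23988852, minus strand) had the largest change of the 6 genes in every comparison. Its level was 130.3, 100.8, 102.3 and 115.6 CPM in CSF3R-only replicates A to D, 83.5, 47.9 and 51.3 CPM in CSF3R-first A to C, and 24.1, 19.1, 24.3 and 15.8 CPM in CEBPA-first A to D. No group overlapped another, although CSF3R-first replicate A stood well above replicates B and C of its own group. Bcl6 was 5.40-fold lower in CEBPA-first cells than under CSF3R-only (a log2 change of -2.43, SE 0.19, edgeR adjusted p = 1.4e-07), and 6.92% of tested genes had a larger absolute change. It was 2.93-fold lower in CEBPA-first than in CSF3R-first (-1.55, SE 0.19, adjusted p = 4.8e-05) and 1.84-fold lower in CSF3R-first than in CSF3R-only (-0.88, SE 0.19, adjusted p = 0.0032). The other 5 genes stood nearer the middle of the distribution in CEBPA-first versus CSF3R-only, where 28.0% of tested genes changed more than Bcl3, 42.7% more than Osm, 43.6% more than Pim1, 52.7% more than Pim2 and 59.4% more than Pim3.

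The promoter windows of Bcl6 were also the only ones of these genes that held the STAT palindrome TTCNNNGAA (any base at N, so it reads the same on both strands). RefSeq windows of 300 bases (GRCm38.p6), from 250 bases before to 50 after a transcript start, were at hand for 5 of the 6 genes, 7 windows in all, and Osm was not matched. They are shown for Bcl6, with the matches in capitals, because its 2 starts both carry the palindrome. The first start lies at the 5′ end of the gene (chr16:23988803-23989102, minus strand) and the second inside it (chr16:23981234-23981533, minus strand), and the main window of Pim1 (chr17:29490535-29490834, plus strand), which rose most of the 6 genes, is shown with no match.
Bcl6 first start: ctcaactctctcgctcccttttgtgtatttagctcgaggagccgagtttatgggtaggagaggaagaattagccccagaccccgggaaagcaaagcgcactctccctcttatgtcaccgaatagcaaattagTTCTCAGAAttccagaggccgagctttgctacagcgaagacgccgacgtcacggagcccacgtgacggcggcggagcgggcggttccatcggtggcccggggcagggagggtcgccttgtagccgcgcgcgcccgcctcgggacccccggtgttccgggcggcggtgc
Bcl6 second start: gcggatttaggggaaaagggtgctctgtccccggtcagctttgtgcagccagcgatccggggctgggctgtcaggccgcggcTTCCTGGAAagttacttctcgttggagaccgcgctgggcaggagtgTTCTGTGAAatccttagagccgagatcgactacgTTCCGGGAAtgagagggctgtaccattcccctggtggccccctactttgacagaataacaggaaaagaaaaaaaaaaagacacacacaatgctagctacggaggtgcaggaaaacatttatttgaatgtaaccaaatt
Pim1 first start: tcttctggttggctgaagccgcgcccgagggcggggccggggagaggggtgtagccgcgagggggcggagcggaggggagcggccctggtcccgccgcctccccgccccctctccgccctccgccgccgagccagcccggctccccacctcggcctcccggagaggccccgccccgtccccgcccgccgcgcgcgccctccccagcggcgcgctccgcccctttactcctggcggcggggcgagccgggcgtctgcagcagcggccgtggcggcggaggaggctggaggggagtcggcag

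The match in the first Bcl6 window, TTCTCAGAA, began at position -118 from the start. In the second window TTCCTGGAA began at -168, TTCTGTGAA at -122 and TTCCGGGAA at -88. Of all 32851 RefSeq windows of this length, 8.30% held at least 1 such palindrome and 11 windows held 3 or more. The C/EBP motif TTNNGCAA, searched on both strands, was in 10.8% of all windows and in 1 of these, that of Pim2, at -157. A match is a description of letters and no measure of binding.

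Of 10 tested corepressors and relatives of BCL6, 3 rose, 3 fell and 4 did not pass the test in CEBPA-first versus CSF3R-only, with a median log2 fold change of -0.09, beside 72.0% of all tested genes called. Zbtb16, a related zinc finger repressor, rose from 4.68 ± 0.856 to 7.61 ± 1.09 CPM (log2 fold change 0.70, SE 0.22, edgeR adjusted p = 0.011), and Mta3, a subunit of a corepressor complex that BCL6 recruits, fell from 57.7 ± 1.54 to 36.0 ± 1.60 CPM (-0.68, SE 0.06, adjusted p = 4.5e-07). Bcl6b, the closest relative, was below the filter with no more than 0.0852 CPM in any sample.

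Of 13 genes known from other cells as repressed by BCL6, 4 rose and 8 fell in CEBPA-first versus CSF3R-only, with a median log2 fold change of -0.60. Ccnd2, which encodes a D-type cyclin, rose from 25.9 ± 5.29 to 81.2 ± 4.53 CPM (1.65, SE 0.14, edgeR adjusted p = 3.5e-07). Ccl3, which encodes an inflammatory chemokine, fell from 50.5 ± 8.45 to 9.69 ± 2.47 CPM (-2.38, SE 0.18, edgeR adjusted p = 1.2e-07). Between the mutation orders 5 of the 13 were higher and 7 lower in CEBPA-first, beside 24.0% and 24.3% of all tested genes.

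The upstream pathway and other STAT targets give the setting for these values. Of 12 JAK, STAT and G-CSF receptor genes, 11 fell and none rose in CEBPA-first versus CSF3R-only, with a median log2 fold change of -0.63. The largest fall was that of mouse Csf3r, the receptor gene, from 846.5 ± 94.9 to 153.5 ± 16.1 CPM (-2.46, SE 0.13, edgeR adjusted p = 8.2e-09), and whether reads of the human CSF3R vector entered it was not tested. Stat3 fell from 624.9 ± 27.3 to 417.2 ± 19.6 CPM (-0.58, SE 0.07, edgeR adjusted p = 7.5e-06) and Stat5b from 171.1 ± 8.71 to 128.8 ± 9.01 CPM (-0.41, SE 0.07, adjusted p = 0.00011). Stat5a was at 77.8 ± 3.09 and 75.5 ± 2.33 CPM and did not pass (-0.04, SE 0.05, edgeR adjusted p = 0.46). The smallest change that passed was that of the kinase gene Tyk2 (-0.40, SE 0.07, adjusted p = 0.00029 in edgeR).

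Of 27 tested other STAT3 and STAT5 induced genes, 17 fell and 8 rose in CEBPA-first versus CSF3R-only, with a median log2 fold change of -1.01. Between the mutation orders 15 were lower and 6 higher in CEBPA-first, with a median of -0.42. Saa3, an acute phase gene, fell most, from 6113 ± 909.6 to 638.4 ± 188.0 CPM (-3.26, SE 0.25, edgeR adjusted p = 1.7e-07). Socs3, a feedback inhibitor of the G-CSF receptor, fell from 616.8 ± 36.9 to 232.6 ± 28.6 CPM (-1.41, SE 0.11, adjusted p = 1.7e-07 in edgeR). Cish, a feedback inhibitor induced by STAT5, fell from 15.1 ± 1.85 to 7.52 ± 0.331 CPM (-1.01, SE 0.09, edgeR adjusted p = 7.8e-07).

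Socs2, another STAT5-induced inhibitor, went from 4.97, 6.07, 6.97 and 4.59 CPM in CSF3R-only and 7.47, 13.5 and 12.9 CPM in CSF3R-first to 82.5, 88.8, 84.9 and 98.1 CPM in CEBPA-first. The CEBPA-first samples stood far above all others, and the log2 fold change was 3.97 against CSF3R-only (SE 0.18, edgeR adjusted p = 2.0e-09) and 2.97 against CSF3R-first (SE 0.19, adjusted p = 3.1e-07). Socs2 and Myc were among the 8 of 27 tested genes of that list that rose, beside 17 that fell. The others that rose were Socs1, Ccnd2, Birc5, Vegfa, Fcgr1 and Il10. Over 17 tested JAK-STAT inhibitors, 7 rose and 9 fell, with a median of -0.18. Ptpn1, a tyrosine phosphatase gene, fell from 442.2 ± 29.7 to 166.9 ± 12.4 CPM (-1.41, SE 0.11, edgeR adjusted p = 1.2e-07).

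**Figure D5:**
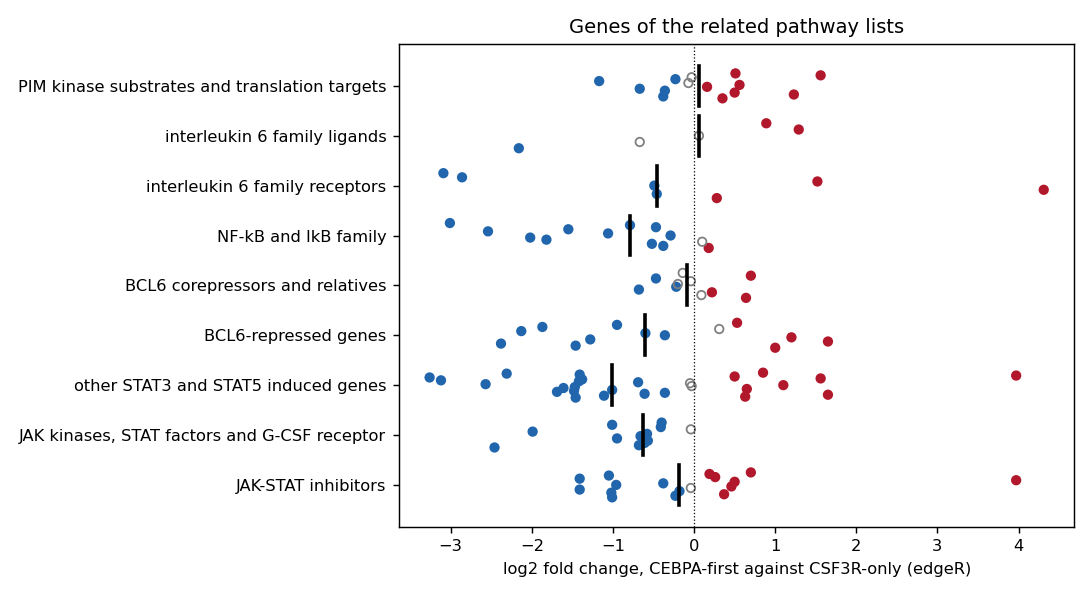
Log2 fold change in CEBPA-first versus CSF3R-only (horizontal axis, edgeR) of each tested gene in 9 lists; filled red and blue points passed an adjusted p of 0.05 upward and downward, open points did not, and black bars are list medians. The median of other STAT3 and STAT5 induced genes lies at -1.01 and that of PIM substrates at 0.07.

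On a log2 scale from 0 at the CSF3R-only mean to 1 at the CEBPA-first mean, CSF3R-first cells lay at 0.377 for Pim1, 0.451 for Pim3, 0.434 for Bcl3, 0.377 for Bcl6, 0.614 for Osm and 1.06 for Pim2. The replicates of CSF3R-first differed in this position. Replicate A was at 0.172 for Bcl6, 0.228 for Bcl3 and 0.241 for Pim1, nearer CSF3R-only than replicates B (0.500, 0.637 and 0.452) and C (0.460, 0.438 and 0.437). For Osm and Pim2 replicate A was instead the nearest to CEBPA-first or beyond it, at 0.865 and 1.80, with replicate B at 0.708 and 0.887 and replicate C at 0.268 and 0.482. Pim3 varied least, from 0.427 to 0.477.

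The genes whose profile over the 11 samples lay nearest to each STAT target were found as a description, by the root mean square difference in log2 CPM after subtracting the CSF3R-only mean. For Pim1 these were Med24 (0.055), Efl1 (0.066) and Rbm26 (0.069), and for Pim3 they were Zc3h13 (0.052), Zfp131 (0.053) and Smarcb1 (0.054). Pim2 was nearest to Il1rl1 (0.075), Fam174b (0.102) and Il27ra (0.107). Osm was nearest to Soat2 (0.084), Dnajb4 (0.109) and Il12a (0.109). Bcl3 was nearest to R3hdm4 (0.053), Zfand3 (0.058) and Tmem189 (0.068), and Bcl6 to Csf1r (0.093), Lsp1 (0.097) and Cybb (0.099). Csf1r, the macrophage colony-stimulating factor receptor gene and one of the monocyte and macrophage markers above, went from 1126 CPM in CSF3R-only through 589.6 in CSF3R-first to 222.8 in CEBPA-first on average.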

How the data were processed

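RNA was taken from 11 samples of sorted, transduced mouse bone marrow, libraries were made with a low-input SMARTer kit, and per the labels and the study's methods reads were trimmed and aligned with STAR to mm10. The authors deposited raw gene counts as whole numbers. The counting tool, annotation and strand setting are not given in the sources used here, and DESeq2 is named in the submitters' processing notes. Symbols matched 51633 of 51912 gene identifiers, and 23409 genes had no count. Groups came from sample titles.

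Counts were fitted with edgeR 4.0.16 (R 4.3.3) in one quasi-likelihood model over all 11 samples, with TMM scaling and filterByExpr, and p-values were adjusted by Benjamini-Hochberg over all 15703 tested genes (threshold 0.05). The study used DESeq2, which was run as an alternative (1.42.0). The fit was checked on simulated counts. CPM per kb used merged exon lengths of GENCODE vM21 (GRCm38). Positions come from the same annotation, near-identical transcripts were sought with BLAST 2.17.0, and only the antisense genes already named matched. Promoter windows were searched for 5 motifs, of which 3 are not reported here. Letters shared between groups were not treated as pairs.

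The 6 genes and all lists were chosen with earlier results of these data known. Named genes are the 6 members, for each the 3 tested genes of nearest profile (average log2 CPM of at least 3, prior count 2), from each list the genes with the largest and smallest log2 fold change that passed in CEBPA-first versus CSF3R-only, and Stat3, Stat5a, Stat5b, Csf3r, Socs3, Cish, Osmr, Il6st, Lifr, Nfkb1, Nfkb2, Bcl6b and Myc. Single cell type markers named with values were chosen after their values were seen. Marker lists beyond those in the report gave summed CPM, in CSF3R-only and CEBPA-first, of 322.6 to 434.0 and 97.9 to 153.7 for dendritic cells, 177.6 to 267.4 and 33.1 to 46.5 for erythroid cells, 676.2 to 914.5 and 103.9 to 151.8 for megakaryocytes, 1608 to 2500.2 and 1121 to 1506 for mast cells and basophils, 243.4 to 364.6 and 29.6 to 37.5 for eosinophils, 538.4 to 775.1 and 475.0 to 506.1 for stem and progenitor cells (5 of 10 genes higher and 5 lower in CEBPA-first), and 134.6 to 142.1 and 175.3 to 194.9 for stromal and endothelial cells.

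One marker gene is not reported here. Alternatives were DESeq2, RLE and upper-quartile scaling, 2 other filters on low counts, a fit of the compared groups alone, the replicate letter as a block, a fold threshold, a log2 ratio in place of the PIM share, and leaving out each sample in turn.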

Additional observations from a re-analysis of the deposited data

Results flagged for a closer look

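Within the CSF3R-only group, the Bcl3 level of replicate A, 171.9 CPM, stood apart from the other 3 samples (175.1 to 175.6 CPM) by more than Dixon's 95% limit for 4 samples. The difference is small beside the gap to the other groups, whose highest sample was at 149.2 CPM. Of 14 groups of values tested in this way 1 passed the limit, and chance alone passes about 1 group in 20.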

How the results depend on the processing

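Of 258 alternative values for the log2 fold changes of the 6 genes, 247 kept their direction and side of the threshold, 4 fell short of it and 7 changed sign. All 7 concerned Pim2 between the mutation orders, which was near 0 throughout: -0.004 with upper-quartile scaling, -0.02 with a floor of 10 counts per sample, -0.03 with only the compared groups in the fit, and -0.17 to 0.16 with 1 sample left out. All 4 concerned Osm in the same comparison, at -0.25 without a filter and -0.36 to -0.15 with 1 sample left out (CSF3R-first C and CEBPA-first A or B ended the call), and the cause was not tested.

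The deviations of samples with the same letter correlated above 0.1 in 7 of 10 pairs (range -0.107 to 0.362), against 5 of 30 pairs with different letters (-0.341 to 0.384). The labels do not say what a letter marks and not every pair passed, so the letters were not used as pairs, and a factor that some of them share was not tested. With the replicate block Pim2 between the mutation orders was -0.0022, no other call changed, and the counts of called genes were 11501, 7705 and 7216 in place of 11314, 7578 and 6703 for CEBPA-first versus CSF3R-only, for the mutation orders and for CSF3R-first versus CSF3R-only. With an absolute log2 fold change of at least 1 also required they were 4244, 2016 and 1045, and the share of them that was higher went from 49.2% to 29.9%, from 49.7% to 20.0% and from 50.5% to 32.0%. Leaving out 1 sample gave 10773 to 11112, 6032 to 7671 and 4620 to 7499 called genes.

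The difference in Pim1 share ran from 3.79 to 5.48 points between the mutation orders and from 6.47 to 8.16 points in CSF3R-first against CSF3R-only with 1 sample left out, where the fewer relabelings allow no p under 0.05. As a log2 ratio of Pim1 to Pim2 the first was 0.40 (exact permutation test, adjusted p = 0.0571).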

Other observations

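Pim2 and Osm shared one feature that the group comparisons do not use. In each of the 3 groups replicate A was the lowest sample for both genes, at 49.1, 31.1 and 37.6 CPM for Pim2 and 42.5, 31.2 and 26.7 CPM for Osm, with CSF3R-only given first and CEBPA-first last. Of all tested genes 962 (6.13%) had replicate A lowest in all 3 groups. For Pim1 and Pim3 this held in 2 groups, for Bcl3 in 1 and for Bcl6 in 0. In CSF3R-first replicate A was instead the highest sample for Bcl3 and Bcl6, at 149.2 and 83.5 CPM.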
